A study of Mus musculus with 12 samples.

Results

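The nuclear genes of mitochondrial complex I were measured in the eWAT of mice on 4 diets. Their rows were taken from the FPKM table by symbol, wherever a mouse Ensembl identifier mapped to Ndufa, Ndufab, Ndufb, Ndufc, Ndufs or Ndufv followed by a number, a rule that used no measured value. It gave 37 of the 23474 genes. All but one of them are complex I subunits, and the exception, Ndufa4, was once counted there and is now placed in complex IV. The 12 libraries came from the epididymal adipose tissue of male C57BL/6J mice, 3 libraries in each group. The ND group received a normal diet, the HFD group a high-fat diet, the GT group the HFD with an ethanol extract of green tea at 0.25% by weight, and the TJ group the HFD with Taeeumjowitang at 3% by weight, a Korean herbal medicine made from extracts of several plants. The diets started at 5 weeks of age and lasted 12 weeks, so every mouse was 17 weeks old. The GT and TJ groups both carried the HFD, and no group received an extract on the normal diet. The study took the HFD and TJ libraries from 3 mice each, and does not say this of the ND and GT libraries, for which the p-values may reflect technical spread only. Expression was given as FPKM, which divides the fragments of a gene by its transcript length and by the depth of its library, so that levels could be set side by side between genes. A log2 unit is a doubling of FPKM + 1.

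Complex I, the NADH:ubiquinone oxidoreductase, is the entry point of the respiratory chain for electrons from NADH. Its matrix arm takes the electrons from NADH in the N module and passes them along iron-sulfur clusters to ubiquinone in the Q module, and its membrane arm pumps protons. The core subunits of both modules of the matrix arm are nuclear, those of the membrane arm are encoded by mitochondrial DNA, and a large set of nuclear accessory subunits surrounds the core and is needed for assembly and stability. White adipocytes hold few mitochondria for their size, and their respiratory chain serves lipid storage, adipokine synthesis and thermogenic remodelling.

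One library went against its label. In ND replicate 1 the 10 adipocyte markers summed to 4459.9 FPKM, against 17426 to 61773 FPKM in the other 11 libraries, and none of these markers was at 0 in any library. The 10 male germ cell markers summed to 99169 FPKM there to 3036 FPKM in ND replicate 3, to 2086 FPKM in HFD replicate 1 and to at most 168 FPKM elsewhere, with Gapdhs at 0 in every library, and the 10 epididymal markers to 15656 FPKM. It was also the shallowest library, at about 10.3 M fragments against 14.5 to 19.96 M in the others, as estimated from the smallest FPKM steps. Comparisons with the ND group are therefore given with and without this library. HFD replicate 2 held epididymal markers as well, with a sum of 1280.4 FPKM. Among the libraries on the HFD, the adipocyte markers summed to 17426 to 19939 FPKM in the HFD group, 24505 to 28289 FPKM in the GT group and 30113 to 61773 FPKM in the TJ group, and the 10 macrophage markers to 3291 to 4675, 1342 to 3054 and 869 to 2416 FPKM, with none of them at 0. In whole tissue, a smaller share of one cell type and less RNA per cell cannot be told apart.

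The 37 genes lay on 15 chromosomes and shared a short transcript. The median length of the principal transcript was 763 nt, from 315 nt for Ndufc1 to 2590 nt for Ndufs1, and all 37 were shorter than the median of 2694 nt over the genes tested between the TJ and HFD groups. Exons of 16 members overlapped exons of another gene, 14 of them on the opposite strand, and since nothing states that the counting used strand, fragments of such pairs are not certain to be assigned to the right gene. All 37 passed the expression filter, a mean of at least 1 FPKM, in every comparison.

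RefSeq promoter windows (GRCm38.p6, 250 bases before to 50 after the start) were matched by symbol for 33 of the 37 members. Ndufa2, Ndufb9 and Ndufs1 were among the members with no window. Each window was searched on both strands for the letters of motifs linked to mitochondrial genes, and 0 pairs of matches to different motifs overlapped in the members. The NRF1 motif was found in 7 of 33 members (21.2%) and, counted in the same way, in 5.19% of all 27025 genes with a window. The YY1 motif AAGATGGC was also found in 7 members (21.2%), in each case reaching past the start, and in 3.19% of all these genes. The ERR motif AAGGTCA was found in 3 members, against 5.38% of all genes, and the GABPA motif CCGGAAGT in 1, against 4.31%. Upregulated DEGs with TJ (adjusted p under 0.05 and at least 1.5-fold above the HFD group) were 5 of the 7 members with an NRF1 match and 4 of the 7 with a YY1 match, beside 20 of all 37 members and 7.41% of all tested genes. The windows of the members had a median of 59% G and C, against 52.7% over all windows. The part of this in the motif counts was not tested. These counts describe letters in a window and say nothing of binding. A pair of windows is shown because Ndufs5 and Ndufb2 hold an ERR match each and their differences from the HFD group had opposite signs with GT. The remaining member with an ERR match, Ndufb4, also holds 3 NRF1 matches. Its mean was 27.5 FPKM in the GT group and 29.2 FPKM in the HFD group, with overlapping groups. The sequence runs 5′ to 3′ on the strand of the gene and stops before the first annotated exon, and capitals mark the matches, the ERR motif in both and the NRF1 motif, nearer the start, in Ndufs5 only.
Ndufs5, chr4:123718203-123718436, minus strand: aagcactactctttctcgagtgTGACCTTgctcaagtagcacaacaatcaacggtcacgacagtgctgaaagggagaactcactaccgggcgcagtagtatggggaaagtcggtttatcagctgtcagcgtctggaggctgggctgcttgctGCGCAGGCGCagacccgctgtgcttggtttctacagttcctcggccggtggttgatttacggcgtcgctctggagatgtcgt
Ndufb2, chr6:39592315-39592564, plus strand: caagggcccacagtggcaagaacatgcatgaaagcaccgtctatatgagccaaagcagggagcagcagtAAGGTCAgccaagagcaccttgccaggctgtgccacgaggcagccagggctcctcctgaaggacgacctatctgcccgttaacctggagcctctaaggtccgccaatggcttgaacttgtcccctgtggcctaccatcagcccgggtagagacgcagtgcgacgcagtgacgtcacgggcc

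Levels of the members spanned a wide range. In the HFD group the highest mean was that of Ndufa4, at 267 ± 16.6 FPKM (SD, n = 3), followed by Ndufa3 at 174 ± 22.3 FPKM (SD, n = 3), and the lowest was that of Ndufa11, at 6.92 ± 0.641 FPKM (SD, n = 3). The summed FPKM of the 37 genes was 2784, 2477 and 2529 in the HFD replicates 1 to 3, 3030.4, 2957 and 2796 in the GT group, 4705, 7499 and 3832 in the TJ group and 9797, 3765 and 2767 in the ND group. The TJ libraries lay above all HFD and GT libraries, and the GT libraries lay above the HFD libraries by a small margin. As a share of all FPKM in the library, the members took 0.464% to 0.504% in the HFD group, 0.513% to 0.546% in the GT group and 0.667% to 1.03% in the TJ group. ND replicate 1 was above all other 11 libraries in 21 members and below them in 3, and ND replicate 2 was above ND replicate 3 in 36 members.

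**Figure D1:**
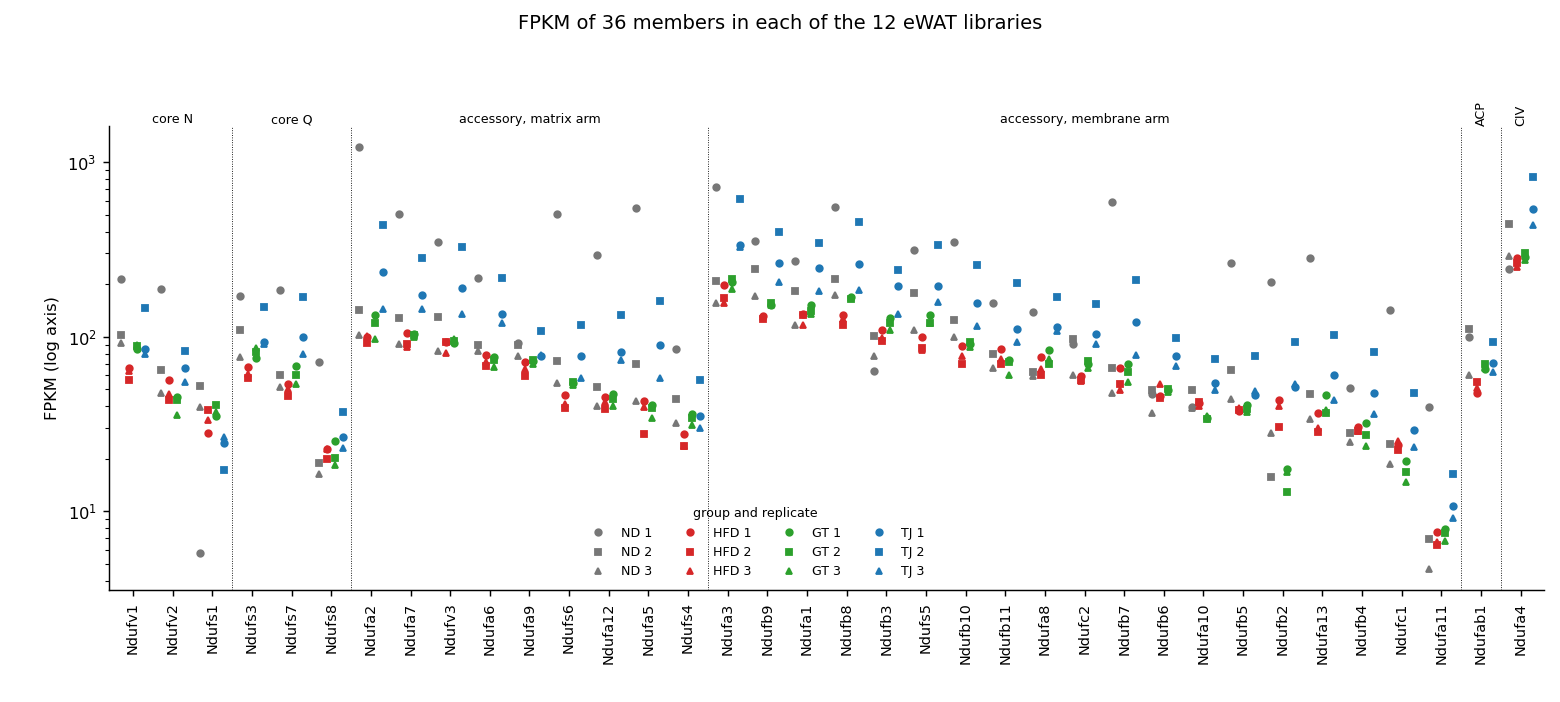
FPKM of each member (log axis) in the 12 libraries, with colours for the groups and symbols for replicates 1 to 3; members are ordered by class (core N, core Q, accessory of the matrix arm, accessory of the membrane arm, acyl carrier protein ACP, and Ndufa4 under CIV for complex IV) and by their HFD mean. Of the 37 members 36 are drawn, and the TJ points lie above the HFD points in all of these but Ndufs1, Ndufv2 and Ndufc1.

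Between the TJ and HFD groups, which asks what TJ in the diet did, every TJ library was above every HFD library in 34 of the 37 members, where 20.1% of all tested genes showed this order. The exceptions were Ndufs1, with every TJ library below every HFD library, and Ndufv2 and Ndufc1, whose groups overlapped. In limma, 20 members were upregulated DEGs (adjusted p under 0.05 and at least 1.5-fold), against 7.41% of all tested genes, and 0 were downregulated, against 11.1%. Without adjustment, 33 members were higher and 1 was lower at p under 0.05, against 16.4% and 24.9% of all tested genes. The median log2 fold change of the members was 0.92, and that of all tested genes was -0.14. With median-of-ratios scaling these medians were 1.06 and -0.02 and 20 members were upregulated DEGs, against 10% of all tested genes (8.45% were downregulated), and with quantile normalization they were 0.82 and 0.03 and 25 members were, against 12% (8.99% were downregulated). DEGs in the deposited scaling were 0 of 3 among the core subunits of the N module (median log2 fold change 0.46), 2 of 4 in the core of the Q module (0.67), 7 of 9 among the accessory subunits of the matrix arm (1.06) and 10 of 19 among those of the membrane arm (0.92). These medians describe the classes and no test was made between them. All calls were lost without any one of HFD replicates 1, 2 and 3 or TJ replicate 1, where limma called 0 of all tested genes and 24 to 32 members were higher at an unadjusted p under 0.05, against 10.8% to 16.3% of all tested genes.

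The N module holds the site where NADH is oxidised. Ndufv1, which binds NADH and the flavin, measured 66.5, 56.5 and 63.3 FPKM in the HFD replicates 1 to 3 and 85.5, 146 and 79.9 FPKM in the TJ replicates. All 3 TJ values were above the HFD values, with TJ replicate 2 far above the other TJ libraries, and the difference was 0.68 log2 units (SE 0.24 and adjusted p = 0.0797 in limma), or 0.41 without TJ replicate 2. Ndufv2, an iron-sulfur subunit beside it, measured 56.2, 43.5 and 46.7 FPKM in the HFD replicates 1 to 3 and 66.3, 82.4 and 55.3 FPKM in the TJ replicates, and TJ replicate 3 lay under HFD replicate 1. Ndufs1, the largest nuclear subunit and a carrier of several iron-sulfur clusters, measured 28.2, 38.2 and 33.1 FPKM in the HFD replicates 1 to 3 and 24.6, 17.1 and 26.5 FPKM in the TJ replicates. It was the one member lower in all TJ libraries, and its lowest value was in TJ replicate 2, where the other members were highest. The difference was -0.54 log2 units (SE 0.20 and adjusted p = 0.09 in limma), or -0.35 without that library. It is also the longest member, at 2590 nt, and it overlaps Eef1b2, a translation elongation factor gene on the opposite strand, which went the other way with a log2 fold change of 0.78 (limma adjusted p = 0.0498).

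In the core of the Q module, Ndufs7 and Ndufs3 were DEGs. Ndufs7, which holds the last iron-sulfur cluster before ubiquinone, rose from 49.8 ± 4.07 to 115 ± 46.6 FPKM (SD, n = 3), with 53.7, 45.6 and 49.99 FPKM in the HFD replicates 1 to 3 and 98.99, 168 and 79.2 FPKM in the TJ replicates. The groups did not overlap, and the difference was 1.13 log2 units (SE 0.27 and adjusted p = 0.0361 in limma). Ndufs3, a scaffold of this module, rose from 62.04 ± 4.66 to 111 ± 32.8 FPKM (SD, n = 3), a difference of 0.79 log2 units (SE 0.21 and adjusted p = 0.043 in limma), and was no longer a DEG without TJ replicate 2 (0.57). Ndufs8, an iron-sulfur subunit, had a log2 fold change of 0.36, or 0.17 without TJ replicate 2, and did not pass (limma adjusted p = 0.187).

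Among the accessory subunits of the matrix arm, the 7 DEGs were Ndufa2, Ndufa5, Ndufa6, Ndufa7, Ndufa12, Ndufs6 and Ndufv3. The largest log2 fold change was that of Ndufa5, with 42.9, 27.7 and 39.6 FPKM in the HFD replicates 1 to 3 and 89.3, 159.5 and 57.9 FPKM in the TJ replicates. TJ replicate 3 was the closest to the HFD group and still above it, and the log2 fold change was 1.35, or 0.97 without TJ replicate 2. Ndufv3, a small subunit bound to the N module, rose from 88.8 ± 7.45 to 216 ± 97.6 FPKM (SD, n = 3), with 92.7, 93.4 and 80.2 FPKM in the HFD replicates 1 to 3 and 189, 325 and 135 FPKM in the TJ replicates. Its groups did not overlap, and the difference was 1.18 log2 units (SE 0.30 and adjusted p = 0.0404 in limma). Ndufa12, which sits at the junction of both modules, had 44.9, 38.4 and 42.2 FPKM in the HFD replicates 1 to 3 and 81.2, 133 and 73.2 FPKM in the TJ replicates, a difference of 1.13 log2 units (SE 0.23 and adjusted p = 0.0283 in limma). Ndufa2, Ndufa6, Ndufa7 and Ndufs6 had log2 fold changes of 1.32, 1.06, 1.02 and 0.92. Ndufa6 is one of the subunits that dock an acyl carrier protein, and Ndufs6 binds zinc. The members of this class that did not pass were Ndufs4, which stabilises the N module, at 0.63 (limma adjusted p = 0.0919), and Ndufa9, near the ubiquinone site, at 0.41 (limma adjusted p = 0.123). Without TJ replicate 2 they were at 0.37 and 0.25.

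Among the accessory subunits of the membrane arm, the 10 DEGs were Ndufa1, Ndufa3, Ndufa8, Ndufb3, Ndufb6, Ndufb8, Ndufb9, Ndufb10, Ndufc2 and Ndufs5. Ndufs5, a subunit on the face of the intermembrane space whose promoter window is shown above, rose from 89.8 ± 8.20 to 229 ± 93.8 FPKM (SD, n = 3), with 99.1, 86.6 and 83.6 FPKM in the HFD replicates 1 to 3 and 195, 336 and 158 FPKM in the TJ replicates. The lowest TJ value was well above the highest HFD value, and the difference was 1.27 log2 units (SE 0.28 and adjusted p = 0.03 in limma). Ndufa3, which had the highest HFD mean among the members that are complex I subunits, measured 199, 167 and 156 FPKM in the HFD replicates 1 to 3 and 334, 615 and 329 FPKM in the TJ replicates, a difference of 1.23 log2 units (SE 0.27 and adjusted p = 0.0299 in limma). Ndufb8 and Ndufb9 followed with 1.16 and 1.11, and Ndufb8 lies on the same strand as Gm20538, an overlapping annotated gene. The other DEGs of this class ran from 0.73 for Ndufb6 to 1.08 for Ndufb10, which also faces the intermembrane space. The 9 members that did not pass were all higher in the TJ group, from 0.42 for Ndufc1 to 1.17 for Ndufb7, and Ndufb7 and Ndufa13 missed the threshold narrowly (limma adjusted p = 0.0518 and 0.0527) and were DEGs without TJ replicate 2. Ndufc1, the shortest member, measured 23.8, 22.3 and 25.2 FPKM in the HFD replicates 1 to 3 and 29.3, 47.7 and 23.4 FPKM in the TJ replicates, with TJ replicate 3 inside the HFD range, and its log2 fold change was 0.14 without TJ replicate 2.

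Ndufab1 is the mitochondrial acyl carrier protein, which also serves fatty acid and lipoate synthesis. It measured 47.6, 55.3 and 50.9 FPKM in the HFD replicates 1 to 3 and 70.3, 93.1 and 62.9 FPKM in the TJ replicates, a difference of 0.53 log2 units (SE 0.17 and adjusted p = 0.0667 in limma). Ndufa4 had the highest HFD mean of the members and was a DEG, rising from 267 ± 16.6 to 600.1 ± 201 FPKM (SD, n = 3), a difference of 1.12 log2 units (SE 0.24 and adjusted p = 0.0297 in limma). Without Ndufa4, 19 of 36 genes were DEGs and the median log2 fold change was 0.90.

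**Figure D2:**
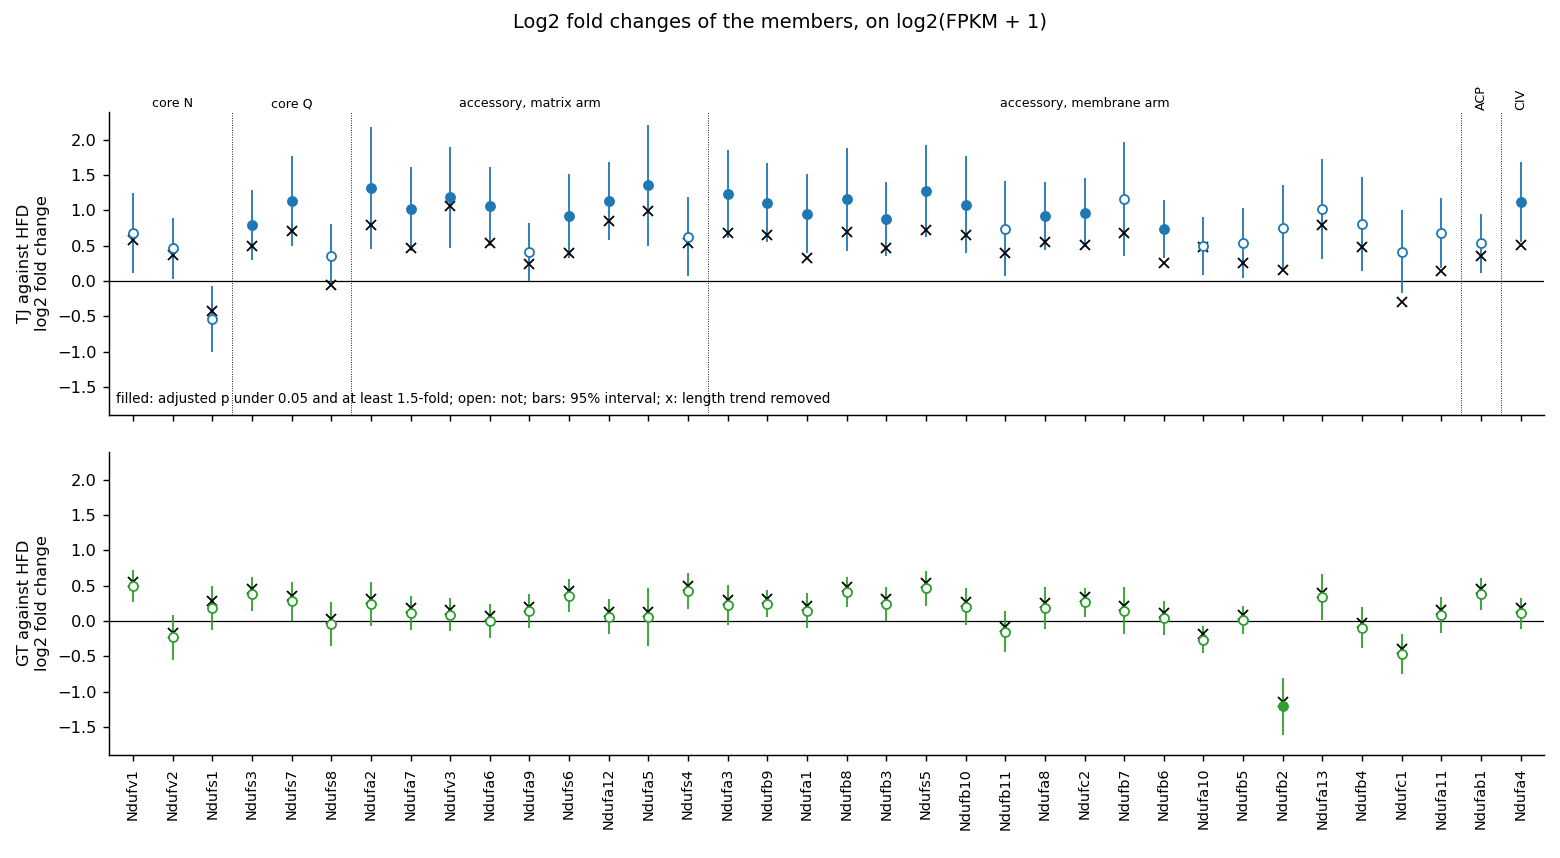
Log2 fold changes of the members on log2(FPKM + 1) for TJ against HFD (upper) and GT against HFD (lower), in the same order as in the plot of levels, with 95% intervals from limma as bars; filled points passed the adjusted p and the fold change and crosses give the value with the trend with transcript length removed. With TJ, 20 of the 36 points drawn are filled and all but Ndufs1 lie above 0; with GT, the one filled point is Ndufb2 at -1.21.

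The TJ libraries differed among themselves in the size of the difference. Measured from the HFD mean, the median member was higher by 0.84, 1.41 and 0.49 (log2) in TJ replicates 1 to 3, and the HFD libraries themselves lay at 0.11, -0.09 and -0.02. TJ replicate 2 was the highest TJ library in 36 members and TJ replicate 3 the lowest in 32. TJ replicate 2 also had the highest adipocyte sum of all 12 libraries, 61773 FPKM, and the lowest macrophage sum of the 9 libraries on the HFD, 869 FPKM. Over the marker lists, 9 of 10 adipocyte markers were higher in the TJ group and 7 were upregulated DEGs, and all 10 macrophage markers were lower and 8 were downregulated DEGs. The sums of other lists differed as well. All 5 fibroblast and progenitor markers had lower means in the TJ group and 3 were downregulated DEGs, with sums of 934 to 1123 FPKM against 1790.3 to 1941 FPKM in the HFD group. All 5 endothelial markers had higher means and 1 was an upregulated DEG, with sums of 227 to 373 against 192 to 221 FPKM. The T and B lymphocyte markers were low, with sums of 4.82 to 7.07 against 2.24 to 2.59 FPKM and Ms4a1 at 0 in these libraries, and the male germ cell markers summed to 0.685 to 9.39 against 29.8 to 2086 FPKM. In none of these lists did the TJ and HFD sums overlap. Their part in the change of the complex I genes was not tested. Without TJ replicate 2, 21 members were upregulated DEGs (6.19% of all tested genes), 19 of them among the 20, and the median log2 fold change was 0.69. None was downregulated (9.53%). At an unadjusted p under 0.05 in limma, 32 members were higher and 0 lower, against 15% and 21.7% of all tested genes.

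**Figure D3:**
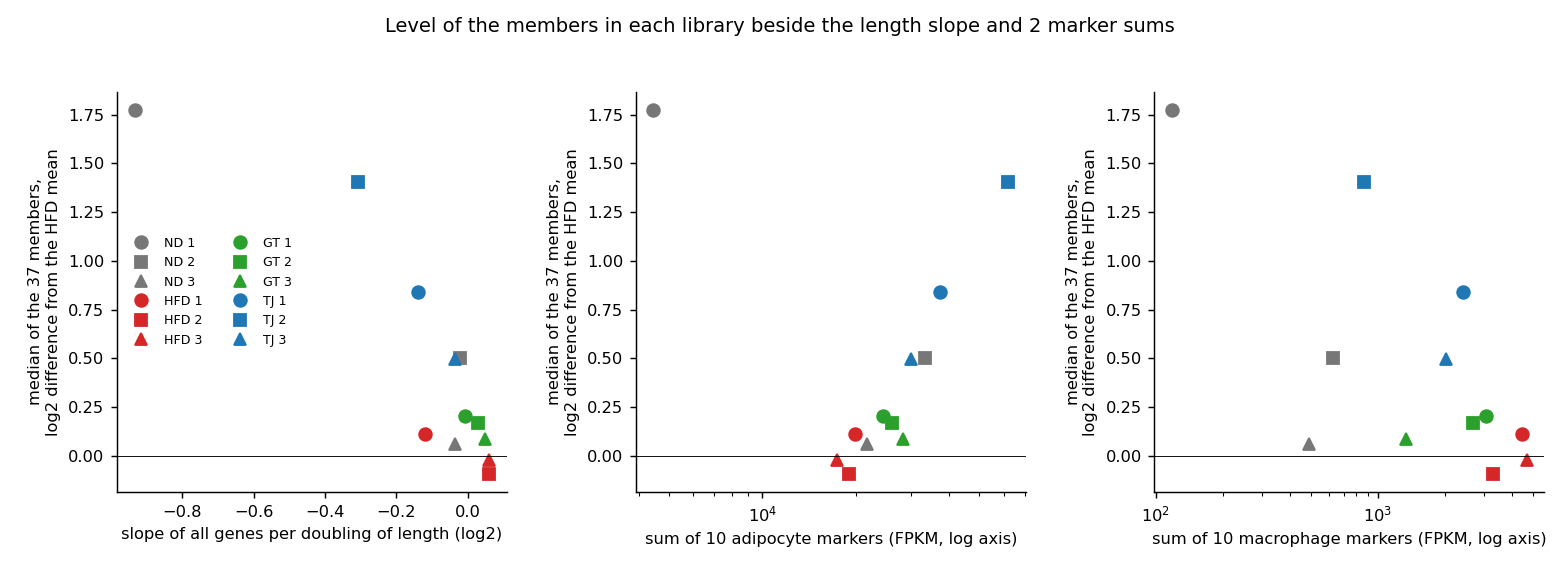
Median log2 difference of the 37 members from the HFD mean in each library, against the slope of all genes with transcript length (log2 per doubling of length), the sum of 10 adipocyte markers and the sum of 10 macrophage markers (FPKM, log axes). TJ replicate 2 combines the highest adipocyte sum with a member median of 1.41, and ND replicate 1 stands apart in all panels.

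Transcript length moved with the fold change. Over the 12725 tested genes with a length, the Spearman correlation of length with the log2 difference of TJ from HFD was -0.333, and over the 37 members it was -0.443; genes of one library are not independent and share depth and fragment size. The slope of all genes was -0.14, -0.31 and -0.035 per doubling of length in TJ replicates 1 to 3, against -0.12 to 0.06 in the HFD group. Of the 24 members under 1000 nt, 17 were upregulated DEGs, against 18.5% of all tested genes of that length, and the median difference was 0.99. Of the 13 longer members 3 were, against 6.32%, and the median was 0.55. Genes of the same length had smaller differences at the median. Among all tested genes of 500 to 749 nt the median log2 fold change was 0.42 and 17.2% were upregulated DEGs, whereas 11 of the 13 members of that length were DEGs, with a median of 1.08. In all, 36 of 37 members lay above the median of the genes in their length class, and Ndufs1 lay below.

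With the trend with length removed, 9 members remained upregulated DEGs, against 8.47% of all tested genes, and all 9 were among the 20. These were Ndufa3, Ndufa5, Ndufa12, Ndufb8, Ndufb9, Ndufb10, Ndufs5, Ndufs7 and Ndufv3. None was downregulated, against 8.72%, and 2 were lower at an unadjusted p under 0.05 in limma, against 20.7%. The median log2 fold change of the members was then 0.49, with 34 of 37 higher. Ndufv3 had the highest value, 1.06, and its transcript of 1582 nt is among the longer ones. Ndufs1 stayed lower at -0.43, and Ndufc1 and Ndufs8 turned to -0.30 and -0.05. The longest transcript of Ndufc1 has 1249 nt, and with the longest transcripts as lengths Ndufc1 did not turn negative. By class, the medians with the trend removed were 0.37 for the core of the N module, 0.46 for the core of the Q module, 0.54 for the accessory subunits of the matrix arm and 0.49 for those of the membrane arm. With TJ replicate 2 left out as well, an alternative chosen after seeing the data, Ndufa12, Ndufs5 and Ndufv3 were upregulated DEGs, against 6.66% of all tested genes, 0 members were downregulated, against 7.67%, with 1 lower at an unadjusted p under 0.05 in limma (18.2% of all tested genes), and the median of all members was 0.37.

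**Figure D4:**
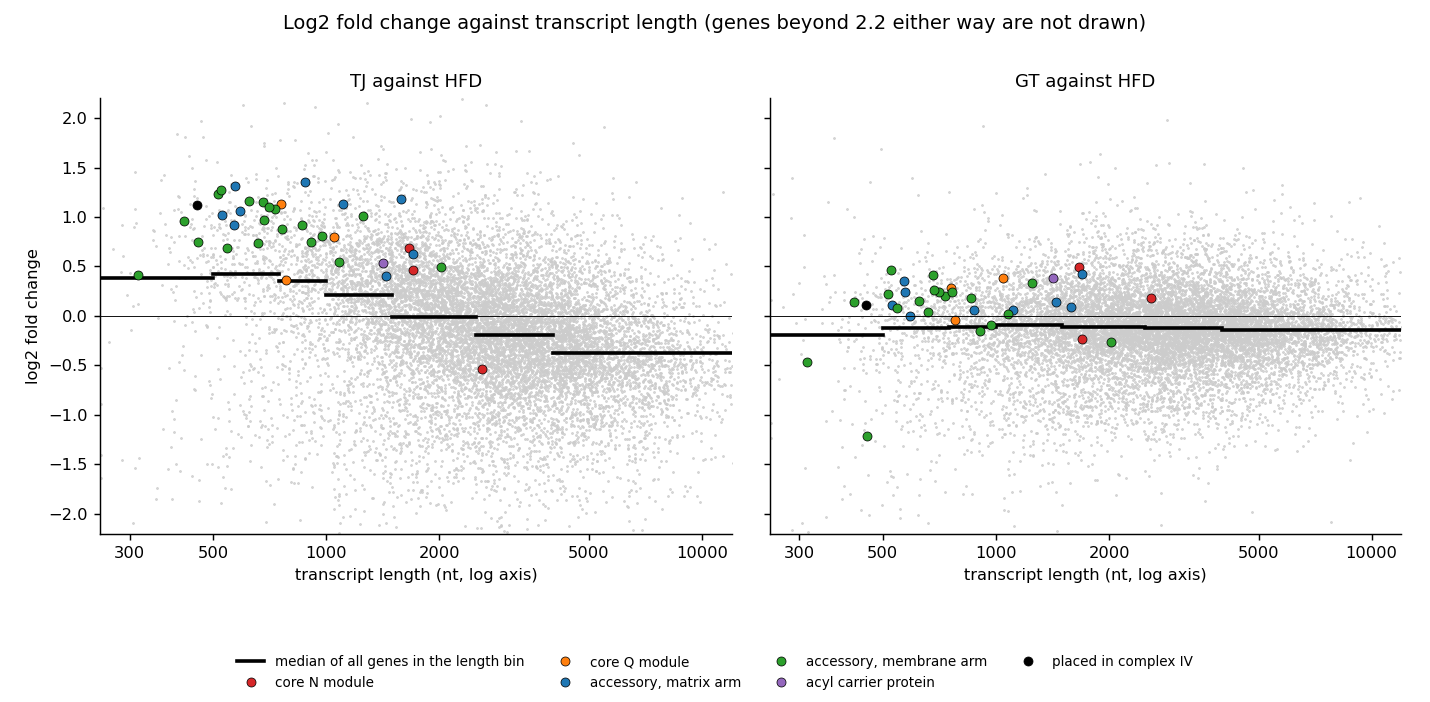
Log2 fold change against principal transcript length (log axis) for TJ against HFD (left) and GT against HFD (right); grey points are all tested genes, black lines their medians in length classes, and coloured points the members by class. On the left the black lines run from about 0.42 at 500 to 749 nt to -0.38 at 4000 nt and over, and all of the 36 members drawn but Ndufs1 lie above the line of their length class; on the right the lines lie between -0.19 and -0.09.

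Between the GT and HFD groups, which asks what green tea extract in the diet did, the differences of the members were mostly small. Every GT library was above every HFD library in 12 members, against 12.3% of all tested genes, and below in 3, Ndufa10, Ndufb2 and Ndufc1, against 24.4%. In limma, 0 members were upregulated DEGs (1.83% of all tested genes) and 1, Ndufb2, was downregulated (1.81%), while 12 members were higher and 3 lower at an unadjusted p under 0.05, against 9.98% and 19.3% of all tested genes. The median log2 fold change was 0.15 and 29 of 37 members were higher, beside a median of -0.12 over all tested genes. With median-of-ratios scaling these medians were 0.28 and -0.0068, and with quantile normalization 0.23 and 0.03, where 3.17% of all tested genes were upregulated and 1.27% downregulated. The correlation with length was weak, at a Spearman value of -0.018 over all genes and 0.095 over the members. By class the medians were 0.18 in the core of the N module, 0.27 in the core of the Q module, 0.11 in the accessory subunits of the matrix arm and 0.15 in those of the membrane arm. The adipocyte markers were all 10 higher in the GT group with 3 DEGs, and the macrophage markers were all 10 lower with 0 DEGs and 10 at an unadjusted p under 0.05. The fibroblast and progenitor markers summed to 1165 to 1443 FPKM in the GT group, below every HFD library. Their part was not tested.

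Ndufv1 had the highest log2 fold change with GT. It measured 84.6, 88.7 and 89.2 FPKM in the GT replicates 1 to 3 against 66.5, 56.5 and 63.3 FPKM in the HFD group. The GT values were tightly grouped and all above the HFD values, a difference of 0.49 log2 units (SE 0.10 and adjusted p = 0.0464 in limma), which is under 1.5-fold. Ndufs5 and Ndufs4 followed at 0.46 and 0.42 without passing (limma adjusted p = 0.0555 and 0.0668), and with median-of-ratios scaling Ndufv1 and Ndufs5 became upregulated DEGs, against 3.13% of all tested genes, and Ndufb2 was the one downregulated DEG, against 1.14%. Ndufv3, which rose with TJ, had a log2 fold change of 0.09 with GT, with 91.6, 94.8 and 96.6 FPKM in the GT replicates. Ndufs1 measured 34.9, 40.7 and 37.2 FPKM in the GT group, overlapping the HFD group, with a log2 fold change of 0.18.

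Ndufb2, an accessory subunit of the membrane arm (ENSMUSG00000002416, chr6:39592574-39603382, plus strand of GRCm38), fell with GT. It measured 43.1, 30.2 and 40.2 FPKM in the HFD replicates 1 to 3, 17.4, 12.9 and 16.8 FPKM in the GT group, 51.5, 93.2 and 53.6 FPKM in the TJ group and 205, 15.7 and 27.9 FPKM in the ND group. The GT libraries were below every HFD library and every TJ library, and the TJ libraries were above every HFD library. The difference was -1.21 log2 units (SE 0.17 and adjusted p = 0.0338 in limma) for GT against HFD, 0.75 log2 units (SE 0.26 and adjusted p = 0.0762 in limma) for TJ against HFD and 1.96 log2 units (SE 0.25 and adjusted p = 0.0463 in limma) for TJ against GT. The value for TJ against HFD was 0.15 with the trend with length removed (limma adjusted p = 0.507) and 0.48 without TJ replicate 2. The length used was that of the principal transcript, 455 nt, whereas the longest transcript has 4371 nt. Ndufb2 was the one member that differed between the TJ and GT groups in limma, where 0.139% of all tested genes were upregulated. Gm42420, an annotated gene, overlaps it on the same strand. Ndufb2 overlaps Braf, a kinase gene on the opposite strand, which measured 7.20, 6.76 and 6.66 FPKM in the GT group and 7.26, 10.2 and 8.22 FPKM in the HFD group (log2 fold change -0.27, limma adjusted p = 0.218). In the TJ group Braf measured 5.21, 3.28 and 6.55 FPKM, with a log2 fold change of -0.70 from the HFD group (limma adjusted p = 0.0713), opposite in sign to that of Ndufb2. The call for GT against HFD was lost without HFD replicate 1, 2 or 3 or GT replicate 2 or 3, and that for TJ against GT without GT replicate 1, 2 or 3 or TJ replicate 1. The log2 fold change stayed between -1.46 and -1.08 for GT against HFD and between 1.21 and 2.12 for TJ against GT over the alternatives.

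Ndufa10, a membrane arm subunit with the fold of a nucleoside kinase, showed the same order of groups on a smaller scale. It measured 41.9, 42.1 and 40.1 FPKM in the HFD replicates 1 to 3, 34.2, 33.5 and 35.1 FPKM in the GT group, 54.2, 74.8 and 49.6 FPKM in the TJ group and 39.7, 49.2 and 38.8 FPKM in the ND group. Every GT value was below every HFD value and every TJ value was above, an order shown by 0.796% of all genes tested between the TJ and HFD groups. The log2 fold change was -0.26 with GT (limma adjusted p = 0.0948) and 0.49 with TJ (limma adjusted p = 0.0799), or 0.32 without TJ replicate 2, and neither passed. Ndufc1 was lower in all GT libraries, at 19.5, 16.7 and 14.7 FPKM against 23.8, 22.3 and 25.2 FPKM in the HFD group, a difference of -0.47 log2 units (SE 0.12 and adjusted p = 0.0673 in limma).

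**Figure D5:**
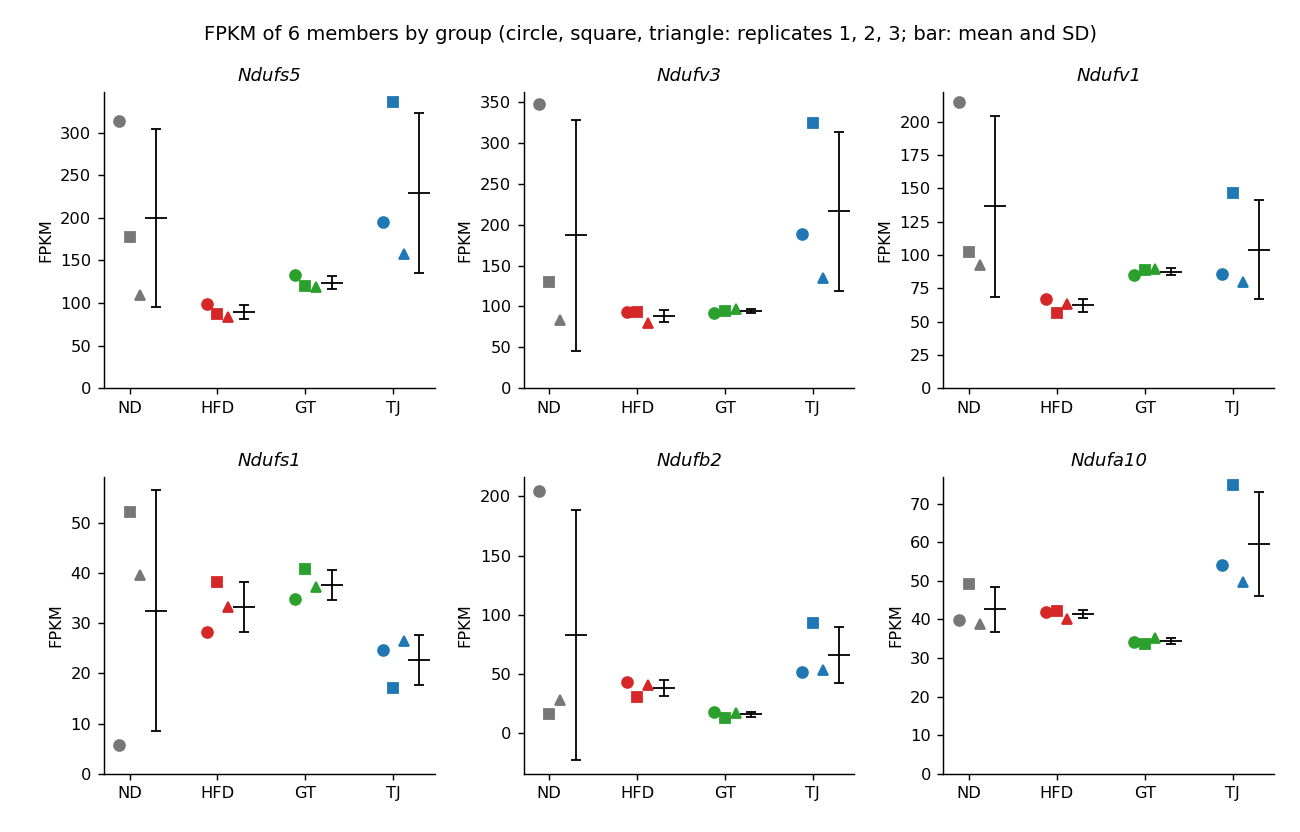
FPKM of Ndufs5, Ndufv3, Ndufv1, Ndufs1, Ndufb2 and Ndufa10 in the 4 groups; symbols are replicates 1 to 3 and the black bar is the mean with its SD (n = 3), which in the ND group includes replicate 1. Ndufb2 and Ndufa10 are lowest in the GT group among the diets with HFD, and Ndufs1 is lowest in the TJ group.

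Set against the GT group, which shares the HFD, every TJ library was higher in 31 members, against 19.5% of all tested genes, and lower in Ndufs1, against 14.9%. The median log2 fold change was 0.76 and 29 members were higher at an unadjusted p under 0.05, against 14.9% of all tested genes, while Ndufb2 alone passed in limma (0 were downregulated DEGs, against 0.00821% of all tested genes, and 1 was lower at an unadjusted p under 0.05, against 9.66%). Without TJ replicate 2, Ndufa6 and Ndufa12 joined it, against 0.575% of all tested genes, and none was downregulated, against 0.0903%. After Ndufb2, the largest values were those of Ndufa5, Ndufv3 and Ndufa2, at 1.29, 1.09 and 1.08, or 0.91, 0.76 and 0.66 without TJ replicate 2. Ndufab1, Ndufv1 and Ndufs4 were the closest, at 0.15, 0.19 and 0.20, with overlapping groups. The 95% intervals of these differences ran from -0.25 to 0.55, -0.35 to 0.73 and -0.33 to 0.74, and without TJ replicate 2 the values turned to -0.0088, -0.08 and -0.05. Ndufs1 was lower in the TJ group at -0.72 (limma adjusted p = 0.12). The Spearman correlation with length was -0.493 over all genes and -0.495 over the members, and with the trend removed the median of the members was 0.25 and 0 passed in limma (0.0991% of all tested genes upregulated and 0.0413% downregulated), with 9 higher and 1 lower at an unadjusted p under 0.05, against 11.7% and 10.7% of all tested genes. The adipocyte markers summed to 30113 to 61773 FPKM in the TJ group and 24505 to 28289 FPKM in the GT group and the fibroblast and progenitor markers to 934 to 1123 and 1165 to 1443 FPKM, without overlap, and the macrophage markers to 869 to 2416 and 1342 to 3054 FPKM, with overlap. Of these 25 markers 0 were DEGs in limma, with 2 higher and 4 lower at an unadjusted p under 0.05. The male germ cell markers summed to 0.685 to 9.39 and 16.01 to 77.8 FPKM, without overlap. The part of these markers was not tested.

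The values of the HFD against the normal diet depended on ND replicate 1 and on the fit. With all 3 ND libraries, the median log2 fold change of the members was -0.74, 34 of 37 were lower in the HFD group and 16 were below every ND library, against 5.89% of all tested genes. In limma, 0 members passed, with 1.73% of all tested genes upregulated and 0.0416% downregulated, and 2 were lower at an unadjusted p under 0.05, against 1.75% of all tested genes. Length moved with these differences as well, at a Spearman value of 0.262 over all genes and 0.042 over the members, against 0.0098 and -0.265 without ND replicate 1. With all 3 ND libraries, the median of -0.74 became -0.23 with the trend with length removed and -0.10 with array weights, which give less weight to libraries that vary more, and it was -0.94 without ND replicate 2 and -1.16 without ND replicate 3. Without ND replicate 1 the median was -0.25, 28 were lower, and 18 were below both remaining ND libraries, against 18.6% of all tested genes, and 3 were above both, against 26.6%. Then 2 of 37 members, Ndufv1 and Ndufb8, were downregulated DEGs, a share near the 4.34% of all tested genes (11% were upregulated). Their log2 fold changes were -0.64 and -0.63 (limma adjusted p = 0.0279 and 0.0408). At an unadjusted p under 0.05 in limma, 11 members were lower and 1 higher, against 11.2% and 19.6% of all tested genes. Ndufv1 measured 215, 102 and 92.2 FPKM in the ND replicates 1 to 3 and Ndufb8 555, 215 and 174 FPKM, against 66.5, 56.5 and 63.3 and 133, 117 and 126 FPKM in the HFD group. Both calls were lost in 2 other fits without ND replicate 1. With the replicate number as a block over numbers 2 and 3, which leaves out HFD replicate 1 as well, the log2 fold changes were -0.69 and -0.67 (limma adjusted p = 0.156 and 0.179), and 0 members passed, against 3.64% of all tested genes upregulated and 0.622% downregulated, while 8 members were lower and 1 higher at an unadjusted p under 0.05, against 8.15% and 13.1%. With median-of-ratios scaling the values were -0.69 and -0.67 (limma adjusted p = 0.0966 and 0.14), and 0 members passed, against 8.78% upregulated and 3.65% downregulated, while 3 were lower and 1 higher at an unadjusted p under 0.05, against 11.8% and 16.9%. With all 3 ND libraries and a block over numbers 1 to 3, 0% of all tested genes passed in either direction.

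Without ND replicate 1 and with the trend with length removed, Ndufb10 and Ndufs6 joined Ndufv1 and Ndufb8 as downregulated DEGs, against 5.76% of all tested genes (9.78% were upregulated), with a median of -0.43. With the block over numbers 2 and 3 in that fit, the median was -0.32 and 0 members passed in limma (lowest adjusted p = 0.164), against 5.07% of all tested genes upregulated and 1.7% downregulated, with 2 lower and 1 higher at an unadjusted p under 0.05, against 11.4% and 12.7%. Without ND replicate 1 and with the trend left in, Ndufb9 had the lowest log2 fold change, -0.66, and did not pass (limma adjusted p = 0.0608). All 9 accessory subunits of the matrix arm were then lower in the HFD group, with a median of -0.30, and 11 of 19 of those of the membrane arm, with a median of -0.07. With all 3 ND libraries, 9 of 9 and 17 of 19 were lower, with medians of -0.96 and -0.63. Without ND replicate 1, Ndufb2 was the highest, at 0.80 (limma adjusted p = 0.129). With all 3 libraries it was -0.27, and it turned to 0.61 with the trend with length removed and to 0.42 with array weights. Ndufs1 turned the other way, from 0.47 to -0.46 without ND replicate 1, which had 5.73 FPKM of it against 52.2 and 39.7 FPKM in the other ND libraries. All 10 macrophage markers had positive log2 fold changes in the HFD group with and without ND replicate 1 and with the block, and 4 were upregulated DEGs with all 3 ND libraries, 10 without ND replicate 1 and 8 with the block over numbers 2 and 3. Of the 10 adipocyte markers, 4 had negative log2 fold changes with all 3 ND libraries and 0 were downregulated DEGs (1 lower at an unadjusted p under 0.05 in limma), and 9 had negative log2 fold changes without ND replicate 1, with 6 downregulated DEGs, or 1 with the block. The fibroblast and progenitor markers summed to 1790 to 1941 FPKM in the HFD group and 59.6 to 1300 FPKM in the ND group. The mesothelial sums were 9.17 to 11.9 and 26.7 to 71.9 FPKM, and the erythroid sums 225 to 375 and 460 to 1061 FPKM. The T and B lymphocyte sums were 2.24 to 2.59 and 2.65 to 8.40 FPKM, and the skeletal muscle sums 0.139 to 0.813 and 0.872 to 7.67 FPKM. None of these sums overlapped, with or without ND replicate 1. The part of all these markers in the values of the members was not tested.

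Between the TJ and ND groups, 0 members passed in limma with or without ND replicate 1, as did 0% of all tested genes in either direction. Every TJ library was above every ND library in 3 members, against 12.5% of all tested genes, and above both ND replicates 2 and 3 in 18, against 20.8%. Every TJ library was below every ND library in 0 members, against 13.6%, and below ND replicates 2 and 3 in 1, against 27.2%. The median was 0.06 with 2 members higher at an unadjusted p under 0.05, against 4.45% of all tested genes, and 0.68 without ND replicate 1, with 35 of 37 members higher and 13 higher and 1 lower at an unadjusted p under 0.05, against 12.1% and 11.7%. The lowest was then Ndufs1, at -0.99, and the highest Ndufb2, at 1.55, against -0.06 and 0.48 with all 3 ND libraries. With the trend with length removed, the medians were 0.29 with all 3 ND libraries and 0.15 without ND replicate 1. With the trend left in, the median turned to -0.056 without ND replicate 2, -0.11 without ND replicate 3 and -0.14 without TJ replicate 2. The macrophage markers summed to 869 to 2416 FPKM in the TJ group and 118 to 629 FPKM in the ND group, and the mesothelial markers to 3.57 to 16.9 and 26.7 to 71.9 FPKM, neither with overlap, also without ND replicate 1. The endothelial sums, 227 to 373 and 13.8 to 223 FPKM, did not overlap either. Without ND replicate 1, the fibroblast and progenitor sums did not overlap (934 to 1123 against 1300 and 1139 FPKM in ND replicates 2 and 3). The T and B lymphocyte sums did not then overlap either (4.82 to 7.07 against 4.73 and 2.65 FPKM). The male germ cell markers summed to 0.685 to 9.39 FPKM in the TJ group, against 168 and 3036 FPKM in ND replicates 2 and 3. Their part was not tested.

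Other genes of the pathway were followed by list. Among 6 tested subunits encoded by mitochondrial DNA, all had higher means with TJ, at a median of 0.60 log2 units and a lowest value of 0.34 for mt-Nd2, and mt-Nd4 and mt-Nd6 were DEGs at 0.67 and 0.93. mt-Nd6, a subunit of the membrane arm, measured 1717, 1669 and 1505 FPKM in the HFD replicates 1 to 3 and 3243, 4211 and 2195 FPKM in the TJ replicates, so that every TJ library was above every HFD library. With the trend with length removed the median of these subunits was 0.29 and 0 were DEGs in limma, with 2 higher at an unadjusted p under 0.05, against 20.2% of all tested genes. Among 17 tested assembly factors, which build the complex and are not part of it, 16 were higher, with a median of 0.24, and 1, Dmac1, was an upregulated DEG at 0.87, with 20.8, 16.7 and 20.1 FPKM in the HFD replicates 1 to 3 and 35.6, 45.8 and 27.9 FPKM in the TJ replicates. With the trend with length removed, 13 of the 17 were higher, with a median of 0.13, and Dmac1 was at 0.44 and 0 were DEGs in limma. At an unadjusted p under 0.05, 4 of the 17 were higher, near the 20.2% of all tested genes. Ecsit, another assembly factor, was listed at 0 in all libraries. Of the 4 subunits of complex II, the other entry of the chain, Sdhc was an upregulated DEG at 0.65 and was not one without TJ replicate 2 (0.50), and Sdha, its catalytic subunit, was at 0.09. Ndufa4l2, a relative of Ndufa4 outside the rule, was at 0.68 and did not pass.

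Of 10 tested transcriptional regulators of mitochondrial genes, 2 were higher in the TJ group, Tfb2m highest at 0.12, over a median of -0.10, and Pprc1, a coactivator related to Ppargc1a, was a downregulated DEG at -0.77, with 9.53, 10.3 and 12.5 FPKM in the HFD replicates 1 to 3 and 6.06, 4.70 and 7.05 FPKM in the TJ replicates. Ppargc1a and Ppargc1b, also on the list, had means under 1 FPKM over these libraries and were not tested. Nrf1, Gabpa, Esrra and Yy1, whose motifs were searched above, had log2 fold changes of -0.25, -0.73, 0.11 and -0.12, and none passed. With the trend with length removed, 5 of the 10 regulators were higher, over a median of -0.05, and 0 were DEGs in limma. At an unadjusted p under 0.05, 2 of the 10 were lower, near the 20.7% of all tested genes. Yy1 turned to 0.27, then the highest of the list, Pprc1 was at -0.43, and Nrf1, Gabpa and Esrra were at -0.35, -0.70 and 0.16. With GT, 0 genes of these lists passed in limma, while 3 assembly factors, 4 mitochondrial subunits and Sdhd were higher and Yy1 was lower at an unadjusted p under 0.05. Of all tested genes 9.98% were higher and 19.3% lower at that p. The medians were 0.33 for the mitochondrial subunits and 0.02 for the assembly factors. Between the HFD and ND groups, 0 genes of these lists passed in limma with all 3 ND libraries, with 1 higher at an unadjusted p under 0.05, and Sdha, mt-Nd5, the assembly factor Nubpl and Esrra had log2 fold changes of 0.07, 0.08, -0.60 and 0.66. Without ND replicate 1 the first 3 were downregulated DEGs at -0.75, -1.18 and -0.93, so that Sdha and mt-Nd5 changed sign, and Esrra was an upregulated DEG at 0.66. With the block over numbers 2 and 3 none of the 4 passed, with limma adjusted p from 0.141 to 0.212. Ppargc1a was at -0.71 with all 3 ND libraries and at -1.21 without ND replicate 1, and did not pass (limma adjusted p = 0.0565 without it). It measured 0.35, 2.98 and 2.72 FPKM in the ND replicates 1 to 3 and 0.677, 0.822 and 0.499 FPKM in the HFD replicates.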

How the data were processed

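FPKM values of 12 eWAT libraries were taken as deposited. The authors filtered the reads, mapped them with STAR (2.4.0 in the submitters' processing notes, another version in the study's methods) and computed FPKM with Cufflinks 2.1.1, with multiread and fragment bias correction and with noncoding regions masked. The methods name the human genome, whereas all 23474 identifiers are mouse. FPKM values keep no counts, so precision rests on the spread between libraries. Symbols, coordinates (GRCm38) and lengths of the APPRIS principal transcript came from GENCODE mouse release 21, which named 22671 identifiers and left 803 unnamed. Groups were compared 2 at a time by limma 3.58.1 under R 4.3.3 (trended eBayes) on log2(FPKM + 1), without covariates, where the mean reached 1 FPKM; fold changes on this scale understate those of low genes. p-values were Benjamini-Hochberg adjusted over all tested genes, and DEGs had an adjusted p under 0.05 and at least 1.5-fold. The trend with length was removed by loess (span 0.5). Any member could be named, in role classes, with the highest and lowest of each class and pathway list, and the choice of other pathway genes followed their values. The members and lists were chosen with earlier results of these data known, and no column of the table was left unmapped. The values of 1 member are not reported here by name, and it stays in the counts and medians. The comparison was tested on simulated data for TJ against HFD with 12807 genes. There, 84 of 100 genes changed 4-fold and 47 of 100 changed 2-fold were called, with 10 false calls among 141. In the libraries themselves, 2366 genes were called for TJ against HFD, and fold changes moved with transcript length. How far the rates above hold for such libraries was not tested. Replicate numbers were treated as a possible pairing of the HFD and ND libraries, and the main fits left it out. Deviations from the group means correlated at 0.55, 0.34 and 0.12 for numbers 1 to 3, and nothing in the labels names what a number shares. The 3 deviations of a group cancel out, so these values are not independent. Number 1 also had the highest male germ cell sum of both groups, 99169 FPKM in ND and 2086 FPKM in HFD. Elsewhere single numbers reached 0.46 (TJ and ND, number 3) and 0.37 (TJ and GT, number 1), with negative values for the other numbers. Alternatives were another pseudocount or filter, 2 other scalings, all 12 libraries, a replicate block, no trend, array weights, the length trend and each library left out.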

Additional observations from a re-analysis of the deposited data

Results flagged for a closer look

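Ndufb2 differed between the 2 extracts. Its effect with TJ exceeded that with GT by 1.96 on the log2 scale (SE 0.25, limma adjusted p = 0.0463 over all genes, range 2.2e-06 to 0.738 over the alternatives), which is the comparison of the TJ with the GT group. Against the HFD group it was 0.75 in the TJ group, higher in 3 of 3 libraries and from 0.068 to 1.02 over the alternatives (0.15 with the trend with length removed), and -1.21 in the GT group, lower in 3 of 3. Ndufa10 showed the same order, with 0.49 in the TJ group and -0.26 in the GT group, where every TJ library was above and every GT library below every HFD library; between the TJ and GT groups it differed by 0.76 without passing (limma adjusted p = 0.103). This order of groups was seen in 0.796% of all tested genes and its reverse in 0.148%. Groups of 3 libraries were too small for a test of single outlying libraries.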

How the results depend on the processing

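Groups of 3, FPKM without counts, and lengths from a later annotation than the authors used limit these values, and a low number of calls cannot be read as no change. Settings that use the longest transcript or join 2 choices were chosen after seeing the data. For TJ against HFD, 20 members were DEGs. Upregulated genes made up 7.41% of all tested genes, and their share in each alternative follows its number of members. The number was 0 with no filter (0.973%) and 0 with all 12 libraries in the fit (0.00781%), with 34 and 18 members higher at an unadjusted p under 0.05 (11.4% and 5.96% of all tested genes), 8 with the replicate block (3.35%), 11 with array weights (6.49%), 9 with the length trend removed (8.47%), 6 with the longest transcript as length (8.46%), 3 with that trend removed and without TJ replicate 2 (6.66%), and 0 to 28 with single libraries left out (0% to 9.67%, with 28 and 9.67% without TJ replicate 3); the cause was not tested. The median of 0.92 was 0.43 with the longest transcript and 0.37 with the trend removed and without TJ replicate 2, and 0.69 to 1.11 with single libraries left out. For GT against HFD, the single DEG became 0 with no filter, all 12 libraries, the replicate block or no mean-variance trend. In these fits 0% to 0.258% of all tested genes were upregulated and 0.00783% to 0.266% downregulated. The number was 3 with median-of-ratios scaling (3.13% of all tested genes upregulated and 1.14% downregulated) and 2 without the fold change minimum. With single libraries left out it was 1 without GT replicate 1 (2.92% upregulated and 5.7% downregulated) and 0 in the other fits. In those, 0.00779% to 0.315% were upregulated and 0.0233% to 0.218% downregulated. The median of 0.15 was 0.28 with median-of-ratios scaling. For TJ against GT, the single DEG became 0 with a pseudocount of 0.1, no filter, a filter at 5 FPKM, median-of-ratios scaling, all 12 libraries, the replicate block or the length trend removed in 3 ways, 26 with array weights (25 up, against 8.15% of all tested genes, and 1 down, against 5.46%) and 0 to 3 with libraries left out (0.0327% to 0.575% upregulated); the median of 0.76 was 0.25 with the length trend removed, 0.21 with the longest transcript and 0.17 also without TJ replicate 2. For HFD against ND, the number went from 0 to 1 with array weights (14.7% of all tested genes upregulated and 27.3% downregulated), to 4 with the length trend removed and without ND replicate 1, stayed at 0 without ND replicate 1 under median-of-ratios scaling or under a block with or without the length trend, and to 0 to 2 with libraries left out. Ndufb2 in that comparison reversed to 0.42 with array weights, 0.61 with the length trend removed, and 0.80, 0.61, 0.76, 0.70 and 0.71 without ND replicate 1 (alone, with the length trend removed, with median-of-ratios scaling, with the replicate block and with the block and the length trend removed). Ndufs1 reversed to -0.23 with array weights and to -0.46, -0.55, -0.50, -0.35 and -0.39 in the same 5 fits. With single libraries left out, Ndufb2 ran from -1.01 to 0.80 and Ndufs1 from -0.46 to 1.04. For TJ against HFD, Ndufc1 reversed to -0.30 with the length trend removed and -0.36 also without TJ replicate 2, and Ndufs8 to -0.051, to -0.047 with the longest transcript and to -0.10 also without TJ replicate 2. For TJ against ND, 0 members were called in every alternative. Without ND replicate 2, 0.139% of all tested genes were upregulated and 7.84% downregulated. In every other alternative at most 0.126% were upregulated and at most 0.0211% downregulated. The replicate block, for the HFD and ND groups, changed no call of a member with all 3 ND libraries. In the other comparisons the numbers were not taken to pair the libraries.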
